A study of Homo sapiens with 12 samples.

Results

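The AP-1 transcription factors described here are 10 genes of the basic leucine zipper family: the FOS family members FOS, FOSB, FOSL1 and FOSL2, the JUN family members JUN, JUNB and JUND, and the related factors ATF3, BATF3 and MAFF. They were chosen by name, with earlier results of these data known. They were read from the entries of the deposited table that carry these symbols, which gave 1 locus for each of the 10 genes, out of 31585 distinct loci in all. RNA was sequenced from A375 cells, a human melanoma line, to compare cells in which forms of the coactivator YAP had been stably introduced. Each of the 4 groups held 3 libraries, 12 in all, which the study calls independent RNA samples. They were taken to be separately plated cultures of 1 hygromycin-selected pool of cells per construct. The p-values are therefore read as measuring the spread between cultures and not between independent transductions.

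All groups were A375 cells infected with a retrovirus of the MSCV-IRES-Hygro type, grown on plastic in DMEM with serum. Control cells carried the empty vector. YAP-S127A cells carried YAP with the S127A change of serine to alanine, which removes a site where the LATS kinases mark YAP for retention in the cytoplasm. YAP-S94A,S127A cells carried the same form with the further change S94A, which prevents binding to the TEAD transcription factors. YAP-S127A,S381A cells carried YAP that also lacks the LATS site linked to its degradation. One field of the YAP-S127A,S381A records also lists S94A, whereas their titles and the study's vector list do not, and they were taken as the titles give them. The records state 24 h of culture before lysis and the methods state 48 h. No expressed form was measured apart from the cell's own YAP1, since the values count YAP1 RNA of both.

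AP-1 is a dimer that binds the palindromic DNA element TGACTCA, and the closely related element TGACGTCA is bound by dimers with ATF proteins. JUN proteins can pair with themselves or with FOS proteins, whereas FOS proteins need a JUN partner. FOS and FOSB carry strong activation domains and are induced within minutes by growth factors through the MAPK cascade, while FOSL1 and FOSL2 lack such domains and are maintained by sustained ERK activity, as in melanoma cells with mutant BRAF, of which A375 is one. AP-1 and YAP-TEAD are known to bind together at many enhancers.

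The promoters of 5 members are shown first, because AP-1 genes are known to be controlled in part by AP-1 dimers themselves. Sequences were taken from RefSeq on GRCh38.p14, while the expression table rests on hg19. Windows were held for 8 of the 10 members, and those of FOSL1 and BATF3 were not analysed here. Each window of 250 bases before and 50 bases after a start was searched on both strands for the AP-1 element TGANTCA, the cyclic AMP element TGACGTCA, its variant TGACATCA, and the core TEAD letters CATTCC. Matches are in capitals in the stretches below, which run 5′ to 3′ from 250 bases before the start to 30 bases after it. The first 3 belong to genes that were higher in YAP-S127A,S381A cells and hold a match, and the last 2 to genes that were lower and hold none. They were picked by direction and match, so this split is not a result. The variant TGACATCA was searched as a JUN-type form, so its match in JUN could be foreseen. Other variants of TGACGTCA were not searched, although its first letters, TGACGT, also occur in the windows of FOS, FOSB and FOSL2.
JUN, chr1:58784018-58784297, minus strand: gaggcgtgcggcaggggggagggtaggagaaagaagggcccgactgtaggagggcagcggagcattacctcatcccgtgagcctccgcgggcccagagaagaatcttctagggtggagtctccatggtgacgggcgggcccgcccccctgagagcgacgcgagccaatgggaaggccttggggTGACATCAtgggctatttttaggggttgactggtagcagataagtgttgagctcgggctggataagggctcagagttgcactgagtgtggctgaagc
FOSL2, chr2:28392608-28392887, plus strand: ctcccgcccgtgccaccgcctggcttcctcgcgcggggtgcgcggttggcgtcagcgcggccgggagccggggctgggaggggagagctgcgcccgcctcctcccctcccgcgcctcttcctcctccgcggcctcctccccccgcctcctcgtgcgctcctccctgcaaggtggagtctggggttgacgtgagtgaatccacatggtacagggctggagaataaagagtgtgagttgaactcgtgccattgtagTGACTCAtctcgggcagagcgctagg
ATF3, chr1:212565157-212565436, plus strand: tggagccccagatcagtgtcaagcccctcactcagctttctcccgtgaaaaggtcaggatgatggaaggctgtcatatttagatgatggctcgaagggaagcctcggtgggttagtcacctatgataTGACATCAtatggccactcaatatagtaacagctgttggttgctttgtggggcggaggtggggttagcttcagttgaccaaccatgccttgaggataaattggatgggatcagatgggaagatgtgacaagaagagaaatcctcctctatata
FOS, chr14:75278578-75278857, plus strand: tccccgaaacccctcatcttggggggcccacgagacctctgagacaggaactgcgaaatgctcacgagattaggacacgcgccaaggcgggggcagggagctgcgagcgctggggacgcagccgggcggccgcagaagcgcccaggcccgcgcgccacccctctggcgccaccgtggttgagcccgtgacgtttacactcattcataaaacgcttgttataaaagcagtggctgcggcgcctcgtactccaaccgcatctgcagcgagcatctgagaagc
JUNB, chr19:12791236-12791515, plus strand: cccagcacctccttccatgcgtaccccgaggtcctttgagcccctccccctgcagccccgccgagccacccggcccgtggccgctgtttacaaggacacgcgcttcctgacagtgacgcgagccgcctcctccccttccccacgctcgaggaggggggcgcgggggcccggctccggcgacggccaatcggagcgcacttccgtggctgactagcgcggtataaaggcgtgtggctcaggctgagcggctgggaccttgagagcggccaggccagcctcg

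In JUN the variant TGACATCA began 67 bases before the start, and in ATF3, at the upstream of its 2 starts, the same letters began 123 bases before it. In FOSL2 the element TGACTCA began at base 5 of the transcript. The cyclic AMP element TGACGTCA was found in JUND, 200 bases before the start, and in MAFF, 54 bases before the upstream start. Of 35116 promoter windows of the same length, 7.71% held TGANTCA, 1.85% held TGACGTCA, 2.61% held TGACATCA and 14% held CATTCC. No member window held CATTCC, and those of FOS, FOSB and JUNB held none of the 4 sets of letters. These matches describe the letters in the windows and no binding was measured.

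Expression was given by the authors as log2(FPKM + 1) per locus, where FPKM counts fragments relative to the length of the transcript and the size of the library, so that levels can be set side by side between genes. Levels below are FPKM, and differences are log2 fold changes of FPKM + 1, a scale on which a change at low FPKM looks smaller than it is. They come from limma with all 12 libraries in the fit, and a gene passed at a Benjamini-Hochberg adjusted p under 0.05 over the 15055 loci that reached an FPKM of 1 in 3 or more libraries. All 10 members were among these loci, FOS and FOSB through groups other than YAP-S127A,S381A. The study's rule, which also asks for a fold change over 2 in group mean FPKM, is given beside the counts. The table holds no read counts, so the depth of the libraries is unknown. YAP1 itself read 34.1 and 33.0 in Control replicates 1 and 2, and between 129.7 and 187 in the 9 YAP libraries. The library labelled Control replicate 3 read 172 for YAP1, a level of the YAP lines, so comparisons with Control were also made without it. Between 20161 and 20656 loci per library had a value above 0.

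Within the AP-1 set, the composition of the mRNA pool changed in YAP-S127A,S381A cells. FOSL1, FOSL2, JUN, JUND, ATF3, BATF3 and MAFF rose against Control, and FOS, FOSB and JUNB fell. Thus 10 of 10 members passed, 7 higher and 3 lower, where 42.3% of all tested loci passed, 22.9% higher and 19.5% lower. With a fold over 2 as well, 8 members passed, all but BATF3 and MAFF, where 15.5% of all loci did. The median change of the 10 members was 1.01, beside 0.0083 over all loci. In YAP-S127A cells 6 of 10 members passed, all of them higher, where 6.31% of loci passed, 4.56% higher. They were FOSL1, FOSL2, JUN, JUND, ATF3 and MAFF, and 2 of them, FOSL2 and JUN, also had a fold over 2, where 2.47% of all loci passed both. The share of loci that passed as lower was 1.75%. In YAP-S94A,S127A cells 0 of 10 members passed in limma, where 0.179% of loci passed, and 2 members, JUN and MAFF, had an unadjusted p under 0.05. The share of all loci with an unadjusted p under 0.05 was not recorded, so such counts carry no weight here or below. The comparisons with Control share its libraries. The members were chosen with earlier results of these data known, so their counts are a description. The 10 members without Control replicate 3 gave 7 higher and 3 lower in YAP-S127A,S381A cells, where 37.2% of loci passed, and 4 higher and 1 lower in YAP-S127A cells, where 4.48% passed. In YAP-S94A,S127A cells 0 of 10 members passed without that library, where 0.167% of loci passed. In bulk RNA, a lower level per cell and fewer cells that express a gene cannot be told apart.

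**Figure D1:**
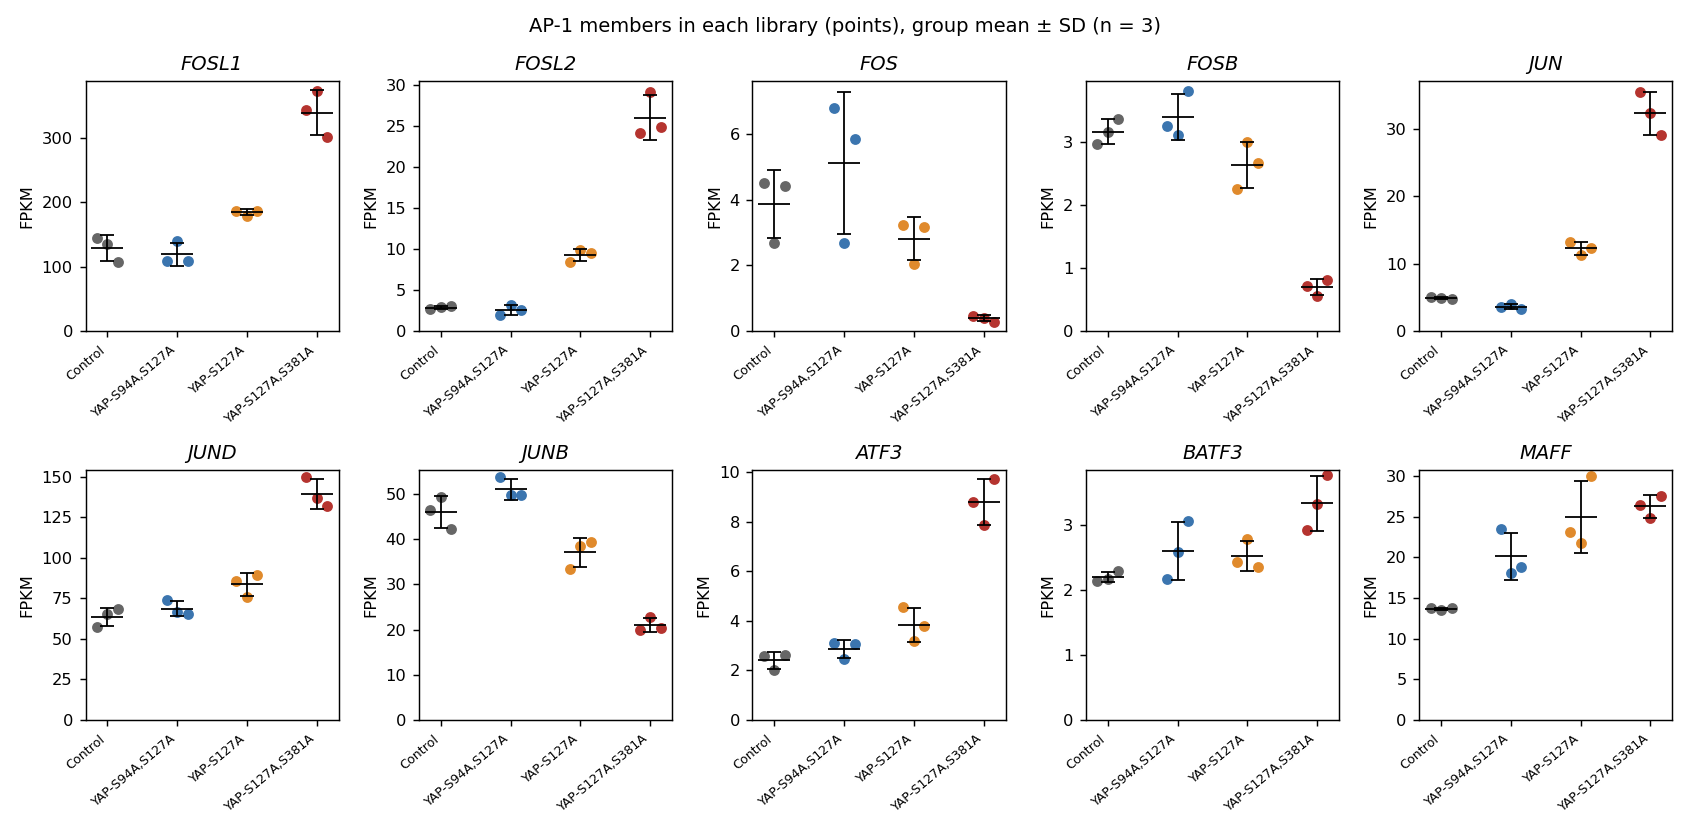
FPKM of each AP-1 member in every library (points), with the group mean and SD (bars, n = 3 libraries), each vertical axis starting at 0. FOSL1, FOSL2, JUN, JUND and ATF3 have their highest 3 libraries in YAP-S127A,S381A cells, and FOS, FOSB and JUNB have their lowest 3 there.

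Of the FOS family, FOSL2 showed the largest change on the log2(FPKM + 1) scale, while the ratio of mean FPKM to Control in YAP-S127A,S381A cells was 9.16 for FOSL2 and 0.0985 for FOS, the latter farther from 1. FOSL2 encodes FRA-2 and lies at chr2:28615315-28640184 of GRCh37, on the plus strand. It read 2.63, 2.89 and 3.01 FPKM in the Control libraries and 1.97, 3.13 and 2.54 in YAP-S94A,S127A cells. In YAP-S127A cells it read 8.47, 9.90 and 9.48, and in YAP-S127A,S381A cells 24.1, 29.1 and 24.8. The Control and YAP-S94A,S127A libraries overlapped, whereas every YAP-S127A library lay above both and every YAP-S127A,S381A library above all others. The log2 fold change against Control was 2.81 (SE 0.12, adjusted p = 1.98e-08) in YAP-S127A,S381A cells and 1.42 (SE 0.12, adjusted p = 4.89e-05) in YAP-S127A cells. In mean FPKM the step from Control to YAP-S127A was 3.27-fold and the step from YAP-S127A to YAP-S127A,S381A was 2.81-fold, the latter with a log2 fold change of 1.39 (adjusted p = 8.30e-06). Against YAP-S94A,S127A, YAP-S127A cells were higher by 1.55 (SE 0.12, adjusted p = 2.22e-05).

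FOSL1 encodes FRA-1, a protein that ERK signalling stabilizes, at chr11:65659520-65668044 on the minus strand. It was the most abundant member in each group. Its levels were 144.8, 135.5 and 106.6 FPKM in Control, 109, 139.6 and 108 in YAP-S94A,S127A, 187, 179 and 187 in YAP-S127A and 344, 373 and 302 in YAP-S127A,S381A cells. Control and YAP-S94A,S127A overlapped, and the other groups lay above them without overlap. FOSL1 rose by 1.40 on the log2 scale in YAP-S127A,S381A cells (SE 0.13, adjusted p = 8.47e-06), a ratio of mean FPKM of 2.63. In YAP-S127A cells the change was 0.52 (SE 0.13, adjusted p = 0.0392). That call was lost in 8 of the 12 fits that each left out 1 library, among them those without Control replicate 3 (0.39, adjusted p = 0.110) or replicate 2 (adjusted p = 0.0758) and without each YAP-S127A library (0.0746 to 0.104). Against YAP-S94A,S127A the YAP-S127A change was 0.64 (SE 0.13, adjusted p = 0.0109), and 0.57 (adjusted p = 0.0503) without YAP-S94A,S127A replicate 3.

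FOS, the prototype immediate-early gene at chr14:75745529-75748933, moved the other way. It read 4.52, 2.69 and 4.43 FPKM in Control, 6.82, 2.68 and 5.85 in YAP-S94A,S127A, 3.22, 2.05 and 3.19 in YAP-S127A, and 0.471, 0.387 and 0.289 in YAP-S127A,S381A cells. Replicate 2 was the lowest library in each of the first 3 groups, which overlapped with each other, and the YAP-S127A,S381A libraries were all below 1 and below every other library. FOS fell by 1.80 on the log2 scale against Control (SE 0.27, adjusted p = 0.000304), with a ratio of mean FPKM of 0.0985, and by 1.45 against YAP-S127A (adjusted p = 0.00193). In YAP-S127A cells the change from Control was -0.35, with a 95% interval from -0.94 to 0.25 (adjusted p = 0.536). Between YAP-S127A and YAP-S94A,S127A cells it was -0.62 (adjusted p = 0.182), and -0.95 (adjusted p = 0.0194) without YAP-S94A,S127A replicate 2.

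FOSB, at chr19:45971253-45978437, showed the same order. Its levels were 2.97, 3.16 and 3.35 in Control, 3.25, 3.11 and 3.80 in YAP-S94A,S127A, 2.26, 2.99 and 2.66 in YAP-S127A and 0.715, 0.554 and 0.811 in YAP-S127A,S381A cells. The YAP-S127A,S381A libraries were again all below 1 FPKM and separate from the rest, and YAP-S127A overlapped Control. FOSB fell by 1.30 against Control (SE 0.10, adjusted p = 2.27e-06) and by 1.10 against YAP-S127A (adjusted p = 1.44e-05). The change in YAP-S127A cells was -0.20, with an interval from -0.43 to 0.03 (adjusted p = 0.321).

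The summed FPKM of the 4 FOS family genes was 139 ± 19.3 (SD, n = 3) in Control, 130.1 ± 15.9 in YAP-S94A,S127A, 199 ± 4.56 in YAP-S127A and 366 ± 37.4 in YAP-S127A,S381A cells. FOSL1 made up 92.7%, 91.3%, 92.6% and 92.6% of it in the same order. The share of FOSL2 was 2.09% in Control, 1.95% in YAP-S94A,S127A, 4.67% in YAP-S127A and 7.12% in YAP-S127A,S381A cells. That of FOS was 2.85%, 4.09%, 1.41% and 0.104% in the same order, and that of FOSB 2.32%, 2.64%, 1.33% and 0.193%. By the means, the second largest share was that of FOS in Control, though in Control replicate 2 FOSB (2.19%) and FOSL2 (2.00%) were above FOS (1.87%), and that of FOSL2 in YAP-S127A and YAP-S127A,S381A cells. These shares are given as a description, with no test.

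In the JUN family, JUN rose, JUND rose and JUNB fell. JUN, at chr1:59242517-59249720 on the minus strand, encodes c-JUN, a strong activator that is phosphorylated by JNK. It read 5.00, 4.83 and 4.72 FPKM in Control, 3.64, 4.05 and 3.20 in YAP-S94A,S127A, 13.2, 11.3 and 12.3 in YAP-S127A and 35.5, 32.4 and 29.1 in YAP-S127A,S381A cells. No libraries of any pair of groups overlapped. JUN was higher than Control by 2.51 in YAP-S127A,S381A cells (SE 0.09, adjusted p = 5.84e-09) and by 1.18 in YAP-S127A cells (SE 0.09, adjusted p = 2.69e-05). In mean FPKM the 2 steps, from Control to YAP-S127A and on to YAP-S127A,S381A, were 2.53-fold and 2.64-fold. The YAP-S94A,S127A libraries lay below Control, at a change of -0.34 (SE 0.09, adjusted p = 0.674), which did not pass. Compared with those cells, JUN was 1.52 higher in YAP-S127A cells (adjusted p = 3.86e-06) and 2.85 higher in YAP-S127A,S381A cells (adjusted p = 2.13e-09).

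JUND, at chr19:18390504-18392432, encodes the JUN protein that is expressed broadly in quiescent and growing cells. Its levels were 57.0, 65.1 and 68.1 FPKM in Control, 73.9, 66.5 and 65.4 in YAP-S94A,S127A, 85.5, 75.6 and 89.5 in YAP-S127A and 149.6, 136.7 and 132 in YAP-S127A,S381A cells. Control and YAP-S94A,S127A overlapped, and each of the other groups was above all groups before it. JUND rose by 1.13 in YAP-S127A,S381A cells (SE 0.09, adjusted p = 2.19e-06), and by 0.39 in YAP-S127A cells (SE 0.09, adjusted p = 0.0241). The YAP-S127A call was lost without Control replicate 1 (adjusted p = 0.0710), without Control replicate 2 (0.0584), and without YAP-S127A replicate 1 (0.0798) or replicate 3 (0.0841). Between YAP-S127A and YAP-S94A,S127A the difference was 0.28 (adjusted p = 0.0714), and 0.35 (adjusted p = 0.0416) without YAP-S127A replicate 2.

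JUNB, at chr19:12902300-12904129, encodes the JUN protein that can counter c-JUN at shared targets. It read 46.4, 49.3 and 42.4 FPKM in Control, 53.7, 49.7 and 49.8 in YAP-S94A,S127A, 33.5, 38.6 and 39.4 in YAP-S127A and 19.8, 22.7 and 20.2 in YAP-S127A,S381A cells. The groups did not overlap, with YAP-S127A,S381A lowest and YAP-S94A,S127A highest. JUNB fell by 1.10 against Control (SE 0.08, adjusted p = 1.40e-06) and by 0.80 against YAP-S127A (adjusted p = 2.88e-05). In YAP-S127A cells the change from Control, -0.30 (SE 0.08), missed the threshold at adjusted p = 0.0558, and passed at 0.0483 without Control replicate 3 and at 0.0276 with median-ratio scaling. Against YAP-S94A,S127A it was -0.45 (SE 0.08, adjusted p = 0.00559). The difference between YAP-S94A,S127A and Control, 0.15 with an interval from -0.03 to 0.33, did not pass.

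The share of JUN in the summed FPKM of the JUN family was 4.25% ± 0.311 in Control, 2.95% ± 0.367 in YAP-S94A,S127A, 9.23% ± 0.656 in YAP-S127A and 16.8% ± 0.634 in YAP-S127A,S381A cells (SD, n = 3). The JUNB share was 40.3%, 41.4%, 28.0% and 10.9% in the same order, and the JUND share 55.4%, 55.6%, 62.8% and 72.3%. JUND was the largest part of the family in every group, and JUN was below JUNB in all groups but YAP-S127A,S381A. The summed FPKM was 114 ± 5.47 in Control and 193 ± 11.9 in YAP-S127A,S381A cells.

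**Figure D2:**
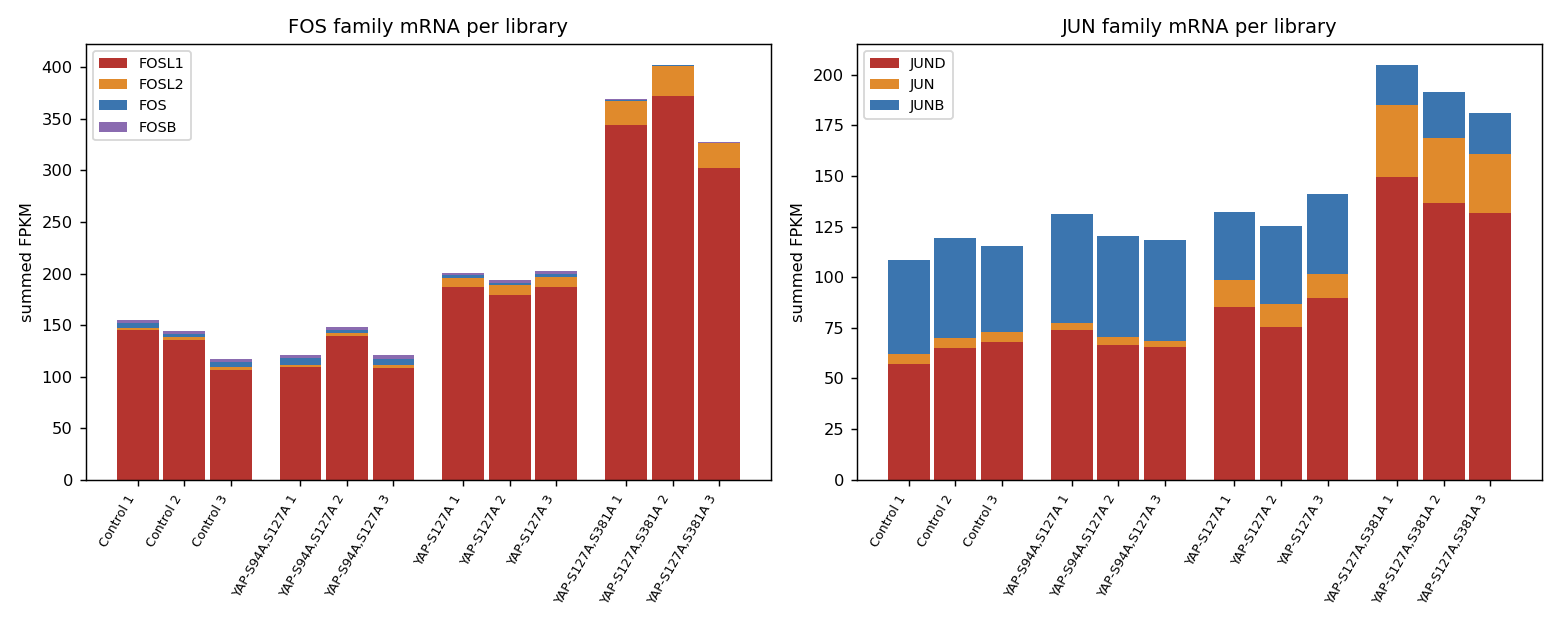
Summed FPKM of the FOS family (left) and JUN family (right) in each of the 12 libraries, with the part of each gene stacked in colour. FOSL1 fills most of every FOS family bar, and the JUNB part of the JUN family bars is smallest in the 3 YAP-S127A,S381A libraries.

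ATF3, at chr1:212738676-212794119, encodes a stress-induced factor that pairs with JUN proteins. It read 2.59, 2.00 and 2.61 FPKM in Control, 3.09, 2.46 and 3.04 in YAP-S94A,S127A, 4.54, 3.17 and 3.78 in YAP-S127A and 8.79, 7.86 and 9.73 in YAP-S127A,S381A cells. Control and YAP-S94A,S127A overlapped, and the other groups were above them. ATF3 rose by 1.53 in YAP-S127A,S381A cells (SE 0.13, adjusted p = 3.66e-06), a ratio of mean FPKM of 3.66, and by 0.50 in YAP-S127A cells (SE 0.13, adjusted p = 0.0438). This latter call was lost in 10 of the 12 fits that left out 1 library, among them those without Control replicate 3 (0.55, adjusted p = 0.0735), replicate 1 (0.0658) or replicate 2 (0.150), and with both alternative scalings (0.0590 and 0.0795). Against YAP-S127A, the YAP-S127A,S381A cells were higher by 1.03 (adjusted p = 0.000124).

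MAFF, at chr22:38596774-38612514, encodes a small MAF protein without an activation domain, which is also a partner of FOS. Its levels were 13.7, 13.5 and 13.8 FPKM in Control, 23.5, 18.1 and 18.8 in YAP-S94A,S127A, 23.1, 21.8 and 29.97 in YAP-S127A and 26.4, 24.8 and 27.6 in YAP-S127A,S381A cells. All YAP lines lay above Control, and YAP-S127A overlapped both YAP-S94A,S127A and YAP-S127A,S381A. MAFF rose against Control by 0.89 in YAP-S127A,S381A cells (SE 0.12, adjusted p = 0.000134) and by 0.81 in YAP-S127A cells (SE 0.12, adjusted p = 0.00219). The YAP-S94A,S127A change was 0.52 (SE 0.12, adjusted p = 0.403), so it did not pass. Between YAP-S127A,S381A and YAP-S127A cells the difference was 0.08, with an interval from -0.18 to 0.35 (adjusted p = 0.638). Against YAP-S94A,S127A it was 0.38 in YAP-S127A,S381A cells (adjusted p = 0.0258), a call lost without YAP-S94A,S127A replicate 2 (0.0921) or 3 (0.0867) and without YAP-S127A,S381A replicate 1 (0.0632) or 3 (0.0815), and 0.29 in YAP-S127A cells (adjusted p = 0.157).

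BATF3, at chr1:212859759-212873182, encodes a small factor of the BATF group that pairs with JUN and is best known from dendritic cells. It showed the smallest change of the 10 in YAP-S127A,S381A cells. It read 2.14, 2.17 and 2.29 FPKM in Control, 2.16, 2.58 and 3.06 in YAP-S94A,S127A, 2.43, 2.78 and 2.35 in YAP-S127A and 2.92, 3.32 and 3.77 in YAP-S127A,S381A cells. The YAP-S127A,S381A libraries were above those of Control and YAP-S127A, and overlapped YAP-S94A,S127A. The change from Control was 0.44 in YAP-S127A,S381A cells (SE 0.11, adjusted p = 0.00735). The difference from YAP-S127A was 0.30 (SE 0.11, adjusted p = 0.0547) and from YAP-S94A,S127A 0.27 (adjusted p = 0.0625), and neither passed. Both passed without YAP-S127A,S381A replicate 1 (0.0422 and 0.0431) and without YAP-S94A,S127A replicate 3 (0.0427 and 0.0265), and the first also without YAP-S94A,S127A replicate 1 (0.0396).

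**Figure D3:**
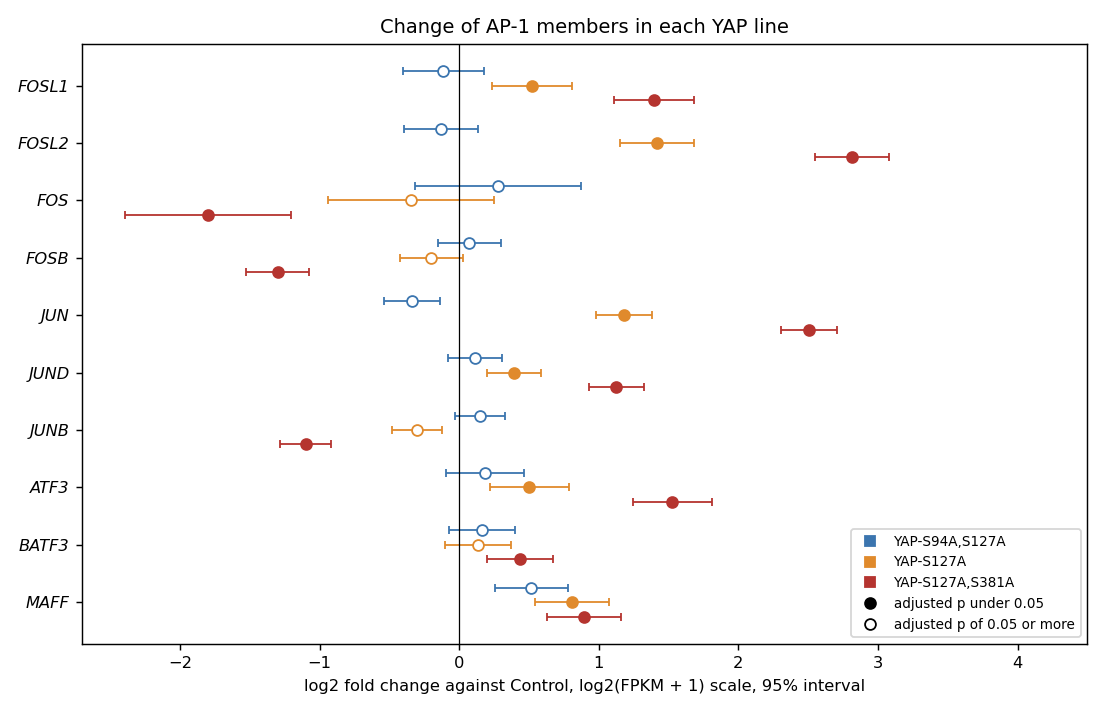
Log2 fold change of each member against Control on the log2(FPKM + 1) scale in the 3 YAP lines, with 95% intervals from limma, filled where the adjusted p was under 0.05. FOSL2 (2.81) and JUN (2.51) are farthest to the right and FOS (-1.80) farthest to the left in YAP-S127A,S381A cells, and all YAP-S94A,S127A points are open.

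Directly between the YAP lines, 8 members passed in YAP-S127A,S381A against YAP-S127A cells, 5 higher and 3 lower, where 32.8% of loci passed, 18.3% higher and 14.5% lower. BATF3 and MAFF did not pass. In YAP-S127A against YAP-S94A,S127A cells 4 members passed, FOSL1, FOSL2 and JUN higher and JUNB lower, where 10.7% of loci passed, 6.36% higher and 4.31% lower. In YAP-S127A,S381A against YAP-S94A,S127A cells 9 members passed, 6 higher and 3 lower, where 43.5% of loci passed, 23.2% higher and 20.3% lower. The 1 that did not was BATF3. With a fold over 2 as well, these counts were 5, 2 and 8, where 11.1%, 3.49% and 15.9% of loci passed.

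The levels of the members ranked differently in the groups. In Control the order of mean FPKM was FOSL1, JUND, JUNB, MAFF, JUN, FOS, FOSB, FOSL2, ATF3 and BATF3. The Control libraries of FOS, FOSB and FOSL2 overlapped each other, as did those of ATF3 and BATF3. In YAP-S127A,S381A cells the order was FOSL1, JUND, JUN, MAFF, FOSL2, JUNB, ATF3, BATF3, FOSB and FOS. JUN, MAFF and FOSL2 had means of 32.3, 26.3 and 26.0, and the libraries of FOSL2 overlapped those of MAFF and, by 1 library, those of JUN. Among all loci, FOSL1 lay at percentile 97.4 in Control and 98.9 in YAP-S127A,S381A cells, FOSL2 at 64.3 and 87.6, and FOS at 67.0 and 49.6.

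Other genes of the AP-1 network were described through 4 lists, also chosen with earlier results of these data known. Among other basic leucine zipper partners, 8 of 25 tested genes were higher and 6 lower in YAP-S127A,S381A cells than in Control, 56% in all where 42.3% of loci passed, 22.9% higher and 19.5% lower. The median change was 0.06, beside 0.0083 over all loci. JDP2, a repressor of AP-1, read 0.577, 0.433 and 0.686 FPKM in Control and 7.14, 9.39 and 8.07 in YAP-S127A,S381A cells, a rise of 2.55 (SE 0.12, adjusted p = 3.46e-08), and it rose by 1.16 in YAP-S127A cells (adjusted p = 0.000187). MAF, a large MAF factor, read 8.86, 9.56 and 9.34 in Control and 0.137, 0.258 and 0.283 in YAP-S127A,S381A cells, where it fell by 3.07 (SE 0.08, adjusted p = 8.91e-10). MAF also fell by 0.45 in YAP-S127A cells (adjusted p = 0.00843). CREB3L1 and NFIL3 rose by 1.26 and 1.03 in YAP-S127A,S381A cells, and NFE2 and CREM fell by 1.26 and 0.60. CREB3L1 reached an FPKM of 1 only in the YAP-S127A,S381A libraries, so it was tested only through the group where it is high and its place among the 8 carries no weight.

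Of 27 tested kinases and factors upstream of AP-1, 4 were higher and 6 lower in YAP-S127A,S381A cells, a share of 37% beside 42.3% of all loci, with a median change of 0.02. MAPK12, MAP2K1 and MAPK9 rose by 0.53, 0.37 and 0.37, and the call of MAPK9 was lost without Control replicate 3 (0.36, adjusted p = 0.0713). The locus read for MAPK12 also carries HDAC10 and TUBGCP6, so its rise cannot be assigned to MAPK12 alone. MAP2K6, which activates p38 kinases, fell by 0.95, and the ERK-activated kinases RPS6KA3 and RPS6KA1 fell by 0.66 and 0.40. In YAP-S127A cells 0 of 27 passed in limma, where 6.31% of loci passed, and 1 had an unadjusted p under 0.05.

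The immediate-early genes besides AP-1, which respond to the same growth factor signals as FOS, passed in both directions, with 6 higher and 9 lower of 19 tested, 78.9% in all beside 42.3% of loci, and a median of -0.29. EGR1 read 19.5, 14.7 and 14.6 FPKM in Control and 1.85, 1.51 and 1.92 in YAP-S127A,S381A cells, a change of -2.64 (SE 0.18, adjusted p = 8.47e-07). NR4A1 read 33.0, 35.5 and 36.3 in Control and 5.20, 5.19 and 4.89 in YAP-S127A,S381A cells, a change of -2.56 (SE 0.07, adjusted p = 1.03e-09), and NR4A2 changed by -3.31 (SE 0.26, adjusted p = 2.23e-06). In YAP-S127A cells NR4A1 already read 21.2, 19.4 and 22.1, all below Control, with a change of -0.72 (adjusted p = 0.000152). GADD45B and IER5, in contrast, rose in YAP-S127A,S381A cells by 1.96 and 1.36 and in YAP-S127A cells by 0.74 and 0.50, and BTG2 rose by 0.94 in YAP-S127A,S381A cells. The YAP-S127A call of GADD45B (adjusted p = 0.0376) was lost without Control replicate 3 (0.62, adjusted p = 0.126).

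Of 19 tested AP-1 target genes, 9 were higher and 4 lower in YAP-S127A,S381A cells, 68.4% in all beside 42.3% of loci, with a median of 0.29. CLU, HBEGF, a growth factor of the EGF family, and MMP3, a matrix metalloproteinase, rose by 2.57, 2.12 and 2.09. MMP3 read 0.0733, 0.0830 and 0 in Control and 4.60, 2.52 and 3.53 in YAP-S127A,S381A cells, the only libraries above 1, so it was tested only through the group where it is high and its place among the 9 carries no weight. CXCL8, TIMP1 and NQO1 fell by 1.11, 0.99 and 0.83. VEGFA, looked at after its values were seen, read 324 in YAP-S127A,S381A replicate 1 and 9.09 and 10.2 in the other libraries of that group, so its mean rests on 1 library. In YAP-S127A cells, where 6.31% of loci passed, 4.56% higher and 1.75% lower, the genes that passed were 2 higher and 2 lower of 25 partners, 2 higher and 1 lower of 19 immediate-early genes and 4 higher and 1 lower of 19 targets. In YAP-S94A,S127A cells 0 genes of the 4 lists passed in limma, where 0.179% of loci passed. Of the lists, 2 partners, 2 upstream factors, 0 immediate-early genes and 2 targets had an unadjusted p under 0.05. The share of all loci at that unadjusted level was not recorded, so these counts carry no weight. Without Control replicate 3, 37.2% of all loci passed in YAP-S127A,S381A cells and 4.48% in YAP-S127A cells. The counts in YAP-S127A,S381A cells were then 6 and 6 of 25 partners and 3 and 6 of 27 upstream factors, higher and lower. They were 5 and 10 of 19 immediate-early genes and 8 and 4 of 19 targets. In YAP-S127A cells they were 1 and 1 immediate-early genes.

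**Figure D4:**
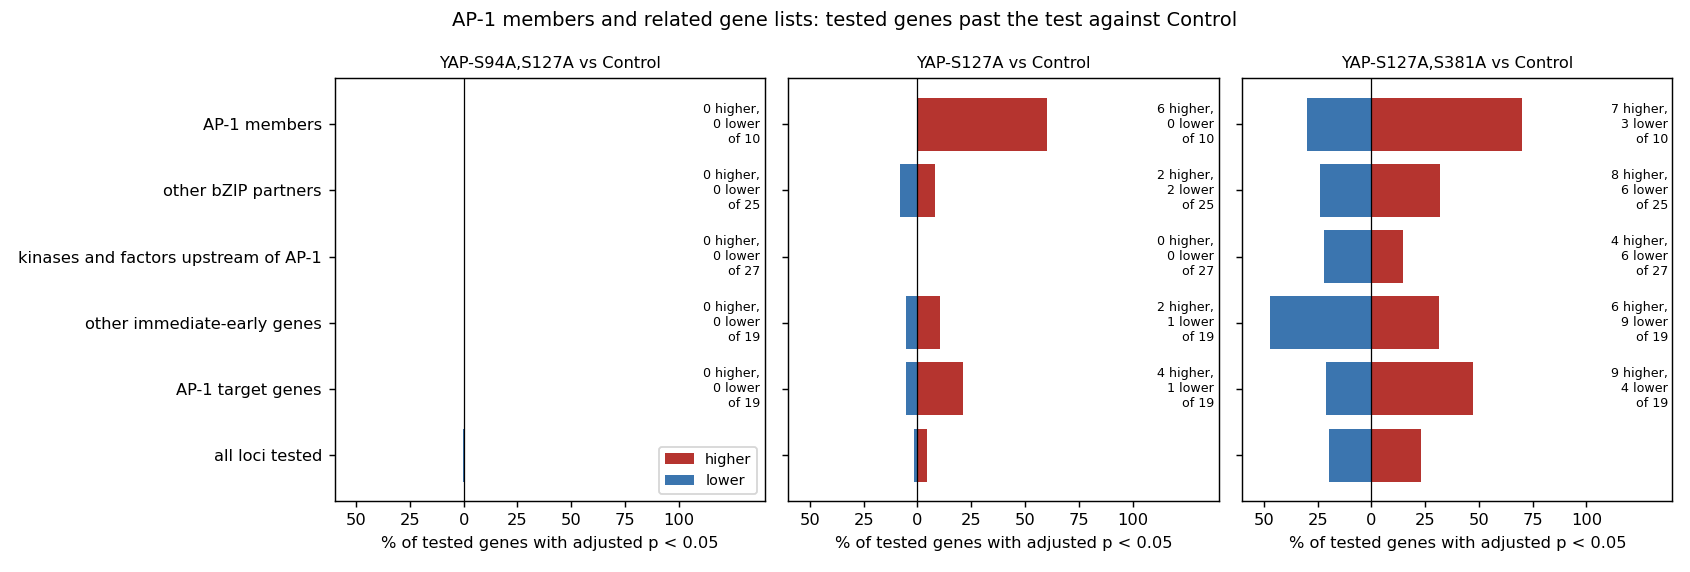
Share of the tested genes of each list with an adjusted p under 0.05 against Control, higher to the right and lower to the left, with counts, beside all 15055 loci tested. The AP-1 members have 60% of their genes higher in YAP-S127A cells and 70% in YAP-S127A,S381A cells.

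For the 8 members whose group means spanned more than 1 on the log2 scale, the 3 loci with the most similar profile over the 12 libraries were found by the root mean square difference of centred log2 values, as a description. KRT80, a keratin, was closest to FOSL2 (0.124), C19orf21 to JUN (0.124), FADS3 to FOSL1 (0.108) and FZD7, a WNT receptor, to FOS (0.218). NAB2, which encodes a corepressor of EGR proteins, was closest to JUNB (0.0536), JARID2 to FOSB (0.0581), DUSP3 to JUND (0.0822) and MYEF2 to ATF3 (0.0949). IER5 was the second locus for FOSL1, at 0.116.

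Markers of cell lineage changed mainly in YAP-S127A,S381A cells. Of 10 melanocyte markers, all in the table, 5 reached an FPKM of 1 in some library. Their summed FPKM was 372 to 460 in Control, 449 to 472 in YAP-S94A,S127A, 276 to 355 in YAP-S127A and 49.3 to 57.8 in YAP-S127A,S381A cells, with SOX10 lower by 5.22 and MITF higher by 1.96 in the last group. The pigment genes TYR and DCT were at or near 0 and PMEL and MLANA below 0.581 in every library. TYRP1, also a pigment gene and too low to be tested, had a mean of 0.0749 in Control, 0.0883 in YAP-S94A,S127A, 0.260 in YAP-S127A and 0.812 in YAP-S127A,S381A cells, and the libraries of the latter 2 groups lay above the rest and apart from each other. Of 7 immune and endothelial markers none reached 1, and their sum was at most 1.06. The 5 epithelial markers summed to 6.28 to 7.65 in Control, 7.11 to 7.42 in YAP-S94A,S127A, 6.50 to 11.3 in YAP-S127A and 2.13 to 2.19 in YAP-S127A,S381A cells. Of the 2 tested, KRT14 changed by -2.45 in YAP-S127A,S381A cells (adjusted p = 3.85e-07) and KRT5 by 1.32 (adjusted p = 1.28e-06), the latter from a mean of 0.0282 to 1.56 FPKM and tested only through its level in that group. The part of these lineage changes in the AP-1 values was not tested.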

How the data were processed

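RNA from 12 A375 cultures was sequenced by the authors on an Illumina HiSeq, and per the study's methods reads were aligned to UCSC known genes of hg19 with Bowtie2 2.0.0 and TopHat2 2.0.4 and summarized with Cufflinks 2.0.2. The authors deposited 1 table of log2 values, log2(FPKM + 1), with 31588 entries, of which 3 identical ones were removed. Whether strand was used is not given in the sources used here. Reads could not be recovered from the FPKM steps, where at most 2.60% of 4466 loci shared the most frequent ratio, so the depth is unknown and its effect on precision is carried only by the spread between libraries. Groups came from the sample titles, and 0 value columns had no sample.

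limma 3.58.1 (R 4.3.3) was fitted to the deposited values with 1 mean per group, an intensity trend and 15055 loci (FPKM of at least 1 in at least 3 of 12 libraries), with Benjamini-Hochberg adjustment over all of them, for the 6 pairs of groups. The fit was tested on simulated data. Fold changes in mean FPKM were computed after removing the pseudocount of 1. Shares of a family are FPKM of a gene over the family's sum. The members and gene lists were chosen with earlier results of these data known. Genes named were the 10 members, YAP1, up to 3 risers and 3 fallers per list in YAP-S127A,S381A cells, and the 3 closest loci of each member with a span over 1. Lineage markers came from 3 lists, and VEGFA was picked after its values were seen. Coordinates are from GENCODE on GRCh37 and promoters from RefSeq on GRCh38.p14. Alternatives were other filters, a pseudocount of 0.1, 2 scalings, only the 6 libraries compared, a replicate block, no trend, other thresholds and each library left out. Figures used Python 3.11.15 and matplotlib 3.10.9.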

Additional observations from a re-analysis of the deposited data

How the results depend on the processing

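The count of members past the test in YAP-S127A against Control, 6, was the least stable: it was 3 with only the 6 libraries compared, 3 at an adjusted p under 0.01, 2 with a fold over 2, and 3 to 6 when 1 library was left out. FOSL2, JUN and MAFF passed in each of the left-out fits, while FOSL1, JUND and ATF3 failed in 8, 4 and 10 of the 12. With a fold over 2 the count fell to 5 in YAP-S127A,S381A against YAP-S127A cells (11.1% of loci) and to 2 in YAP-S127A against YAP-S94A,S127A cells (3.49%). In YAP-S127A against Control, 2.47% of loci passed with a fold over 2. The count in YAP-S127A,S381A against Control was 10 in each of the 12 fits that left out a library. Changes that were near 0 turned direction when 1 library was left out: MAFF in YAP-S127A,S381A against YAP-S127A cells (-0.0045 to 0.218, negative without YAP-S127A replicate 2), and BATF3 in YAP-S127A against YAP-S94A,S127A cells (-0.117 to 0.0625, positive without YAP-S94A,S127A replicate 3 and, at 0.0077, without YAP-S127A replicate 3). With the replicate number as a block, the counts were 10, 6 and 0 for YAP-S127A,S381A, YAP-S127A and YAP-S94A,S127A against Control, 9 for YAP-S127A,S381A against YAP-S127A, 5 for YAP-S127A against YAP-S94A,S127A and 10 for YAP-S127A,S381A against YAP-S94A,S127A. For the block, the 6-library fits, the stricter threshold and most left-out fits, the share of all loci that passed was not recorded. Whether those counts moved with that share is unknown. Over all tested loci, the deviations of same-numbered libraries were weakly correlated and mixed in sign (18 correlations from -0.149 to 0.163, 2 over 0.1). Those between replicate 1 libraries were all positive, from 0.0344 to 0.126. Libraries of different number gave -0.119 to 0.188, and the numbers were not taken to pair the cultures. For single members pairing is not settled, since replicate 2 was the lowest ATF3 library in each group. It was also the lowest FOS library in all groups but YAP-S127A,S381A. With the block, limma passed ATF3 in YAP-S127A against YAP-S94A,S127A cells (adjusted p = 0.0296). It also passed BATF3 in YAP-S127A,S381A against YAP-S127A (0.0363) and YAP-S94A,S127A cells (0.0410). Summing several loci per gene was not run, since each member had 1 locus. With 3 libraries per group and unknown depth, small changes of low genes such as BATF3 are limited in precision.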
